A study of Mus musculus with 40 samples.

Results

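The genes described here are 10 regulators of the G1 phase of the cell cycle, chosen by name: the D-type cyclins Ccnd1, Ccnd2 and Ccnd3, the E-type cyclins Ccne1 and Ccne2, the CDK inhibitors Cdkn1a, Cdkn1b, Cdkn1c and Cdkn2c, and Myc. All 10 were found by symbol among the 28467 genes of the bulk table and the 32285 genes of the nucleus table. All mice were male C57BL/6 of 8 to 12 weeks, and every sample was a cross section of the right kidney. In the nephrectomy group (UNx) the left kidney had been removed under anaesthesia, and in the sham group the operation was done without kidney removal. All mice received an opioid at surgery. Bulk polyadenylated RNA was sequenced at 24, 48 and 72 h after surgery from 6 sham and 6 UNx mice at each time, and single nuclei at 24 h from 2 sham and 2 UNx mice, each sample carrying its own mouse number in the labels.

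D-type cyclins are made in response to growth signals and activate CDK4 and CDK6, which phosphorylate the RB proteins and release E2F transcription factors. E2F factors raise E-type cyclins, which activate CDK2 and carry the cell into S phase, and MYC is a transcription factor that promotes ribosome production and G1 progression. The CDK inhibitors brake these kinases: Cdkn1a (p21, a p53 target), Cdkn1b (p27) and Cdkn1c (p57) bind cyclin-CDK complexes, while Cdkn2c (p18) binds CDK4 and CDK6. The remaining kidney grows after removal of the other, and tubule cells can grow both by enlarging and by dividing, so these genes are commonly measured there.

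The RefSeq promoter table (GRCm38.p6) held 5 of the 10 genes, Ccnd3, Ccne1, Cdkn1a, Cdkn1b and Cdkn2c, in 8 entries. Ccnd1, Ccnd2, Ccne2, Cdkn1c and Myc had no entry in it. The sequences below are the 250 bases before the start, 5′ to 3′ on the gene's strand, of the CDK inhibitors with an entry, since 2 of them moved in opposite directions at 24 h. Capitals mark the letters GGGCGG (an SP1 box), CCAAT and TTCCCGC (an E2F core), searched on both strands. The E-box letters CACGTG were also searched and were in none of them.
Cdkn1a, upstream start, chr17:29090729-29090978, plus strand: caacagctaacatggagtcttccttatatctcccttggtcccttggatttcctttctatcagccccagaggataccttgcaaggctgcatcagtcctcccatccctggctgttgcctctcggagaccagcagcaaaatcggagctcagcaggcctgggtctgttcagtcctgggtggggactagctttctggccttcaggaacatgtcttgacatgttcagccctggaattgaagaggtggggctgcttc
Cdkn1a, downstream start, chr17:29093519-29093768, plus strand: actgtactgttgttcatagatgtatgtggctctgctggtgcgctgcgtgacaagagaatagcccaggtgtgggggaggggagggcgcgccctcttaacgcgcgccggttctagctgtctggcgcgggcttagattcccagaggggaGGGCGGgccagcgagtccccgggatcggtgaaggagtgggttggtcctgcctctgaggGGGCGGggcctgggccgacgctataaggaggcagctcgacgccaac
Cdkn1b, chr6:134920151-134920400, plus strand: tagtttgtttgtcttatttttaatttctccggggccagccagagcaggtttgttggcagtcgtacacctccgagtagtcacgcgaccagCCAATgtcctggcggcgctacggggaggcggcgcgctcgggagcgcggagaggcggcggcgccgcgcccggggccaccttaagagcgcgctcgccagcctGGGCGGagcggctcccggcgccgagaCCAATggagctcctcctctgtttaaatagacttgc
Cdkn2c, upstream start, chr4:109666757-109667006, minus strand: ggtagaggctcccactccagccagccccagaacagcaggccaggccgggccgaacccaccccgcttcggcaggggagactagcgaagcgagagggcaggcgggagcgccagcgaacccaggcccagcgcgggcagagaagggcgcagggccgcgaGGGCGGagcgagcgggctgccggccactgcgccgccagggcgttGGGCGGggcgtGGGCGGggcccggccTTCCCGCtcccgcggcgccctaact
Upstream of the first Cdkn1a start no searched motif was found, while its downstream start had 2 SP1 boxes. The Cdkn1b sequence held 1 SP1 box and 2 CCAAT boxes, and that of the upstream Cdkn2c start held 3 SP1 boxes and 1 E2F core. A downstream Cdkn2c start (chr4:109665373-109665622), not printed, held none of the searched motifs. Among 32851 mouse promoters of the same length, 32.7% held the SP1 box, 33.8% CCAAT, 6.02% the E-box and 3.82% the E2F core. A match is a description of letters and not a measured binding site.

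Bulk libraries held about 14870000 to 24110000 counts, and levels are given as CPM (counts scaled to a library total of 1000000) and compared within a gene, since they are not corrected for gene length. Per the labels, the 24 h libraries were batch 1 and the 48 and 72 h libraries batch 2, so time and batch cannot be told apart between 24 h and the later times. A library profile score over 147 processed pseudogenes was set to 0 in the later shams and 1 in the 24 h shams. At 24 h it was 0.950 to 1.05 in shams and 0.609 to 0.864 in UNx, so it separated the groups there. The 24 h shams set the scale, so their mean of 1 was fixed in advance. In these 12 libraries the score and the group cannot be told apart. At 48 h the score was -0.0557 to 0.0807 in shams, 0.561 to 0.661 in UNx replicates 1 to 5 and 0.00307 in UNx replicate 6. So 5 of the 6 UNx libraries at 48 h lay apart from every sham on this score, towards the 24 h libraries, although the labels place all 12 in batch 2. For these 5 the library profile and the group cannot be told apart, which bears on every value at 48 h and on the differences between times, and whether they were prepared like the others was not tested. The share of mitochondrially encoded counts followed it at 48 h, with 14.0% to 15.5% in shams, 25.8% to 26.4% in UNx replicates 1 to 5 and 15.2% in UNx replicate 6. At 72 h the score was -0.0669 to 0.0637 in shams and -0.0491 to 0.114 in UNx. Tubule, endothelial and podocyte marker genes were detected in every bulk group, T cell and neutrophil marker sums stayed at or below 5.41 CPM, and the adipocyte marker sum reached 879.5 CPM in UNx replicate 4 of 24 h against 27.3 CPM in the highest sham of that time. In shams it reached 404.3 CPM at 48 h and 160.8 CPM at 72 h, and in UNx 174.5 and 120.9 CPM.

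At 24 h, 5 of the 10 genes passed the test, 3 higher and 2 lower in UNx, beside 27.3% of all 14104 genes tested (14.2% higher and 13.1% lower). The higher genes were Ccnd3, Ccne2 and Cdkn1a, and the lower genes were Ccnd1 and Cdkn1b. Groups did not overlap for 4 of them, Ccnd3, Ccne2, Cdkn1a and Cdkn1b, against 10.4% of all genes. At 48 h, 4 of 10 were higher (Ccnd3, Ccne1, Ccne2 and Myc) and none lower, beside 32.9% of 14280 genes called in either direction, 16.9% higher and 16.0% lower, and all 4 had overlapping groups. At 72 h only Cdkn1a was called, higher, beside 1.71% of 14556 genes (1.21% higher and 0.502% lower), and its groups did not overlap, as in 2.05% of all genes. All 10 passed the filter on low counts at every time. The median log2 fold change of the 10 was 0.28 at 24 h, 0.30 at 48 h and 0.01 at 72 h, against 0.01, -0.04 and -0.0042 for all genes tested. In bulk tissue, fewer cells of a type and less RNA per cell cannot be told apart. With the profile score as a covariate, the genes called numbered 1 at 24 h (Ccne2), 0 at 48 h and 0 at 72 h, while all genes called fell to 85, 0 and 104. At 24 h the fold changes of Ccnd3 and Cdkn1a were then larger, with larger errors (0.42 ± 0.14, adjusted p = 0.31, and 1.03 ± 0.37, adjusted p = 0.376), that of Cdkn1b was near 0 and that of Ccnd1 was positive. At 48 h those of the 4 called genes were 0.12 for Ccnd3, 0.59 for Ccne1, 0.42 for Ccne2 and 0.10 for Myc. With UNx replicate 6 as the only UNx library at 48 h, assumed to vary like the shams, no member and no other gene was called.

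**Figure D1:**
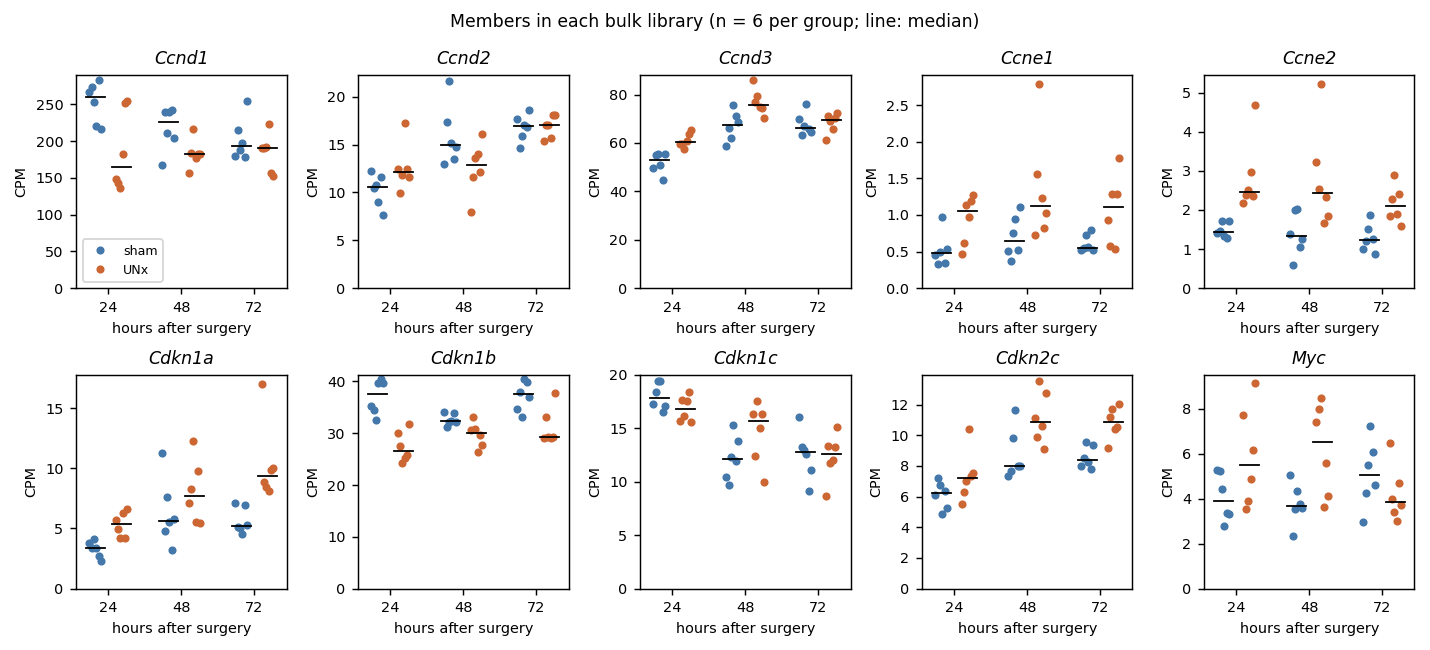
CPM of each gene in each bulk library at 24, 48 and 72 h after surgery, with 6 sham and 6 UNx libraries per time and a line at each median; every vertical axis starts at 0. At 24 h all 6 UNx points of Ccne2 lie above all shams (lowest 2.17 against a highest sham of 1.71 CPM), and at 72 h the same holds for Cdkn1a (8.09 against 7.11 CPM).

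Ccnd1, a D-type cyclin raised by growth factor signalling, was lower in UNx at 24 h. Its lowest, median and highest sham values were 216.0, 259.7 and 283.0 CPM, and those of UNx were 135.5, 165.2 and 254.1 CPM. The UNx libraries were not of 1 level: replicates 1 to 3 measured 135.5 to 147.8 CPM and replicate 4 182.6 CPM, whereas replicates 5 and 6 (252.1 and 254.1 CPM) lay within the sham range. The log2 fold change was -0.44 ± 0.15 (SE, n = 6 per group; edgeR adjusted p = 0.0418), with 4 of 6 UNx libraries below the sham mean. The call was lost without any 1 of sham replicates 1, 2, 3 or 5 or UNx replicates 1 to 4 (log2 fold change -0.44 to -0.36, adjusted p 0.0621 to 0.0892) and with DESeq2 (adjusted p = 0.0553). With the profile score as a covariate in the same 12 libraries the sign turned, to 0.19 ± 0.35 (adjusted p = 0.952). At 48 h the medians were 225.2 CPM in sham and 182.4 CPM in UNx, and the log2 fold change of -0.25 ± 0.10 did not pass (adjusted p = 0.0615), although it did without sham replicate 1 (-0.31, adjusted p = 0.014) or UNx replicate 3 (-0.30, adjusted p = 0.0282). At 72 h the medians were 192.8 and 190.9 CPM, with a log2 fold change of -0.13 and a 95% interval of -0.36 to 0.09.

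Ccnd3, a D-type cyclin with broad expression, was higher in UNx at 24 h by a small amount. Shams measured 44.8, 53.04 and 55.5 CPM (lowest, median, highest) and UNx 57.7, 60.3 and 65.4 CPM, with no overlap. This was a log2 fold change of 0.24 ± 0.06 (adjusted p = 0.00841) and all 6 UNx libraries were above the sham mean; leaving out any 1 library kept the call. At 48 h the ranges overlapped, from 58.9 to 75.8 CPM in sham and 70.4 to 86.2 CPM in UNx, with medians of 67.4 and 75.8 CPM. That difference of 0.20 ± 0.07 was called (adjusted p = 0.0428), and was lost without any 1 of sham replicates 1, 2, 3 or 6 or UNx replicates 1 to 5 (0.16 to 0.21, adjusted p 0.0591 to 0.0957) and without the filter on low counts (adjusted p = 0.0812). By 72 h the medians were 66.3 and 69.6 CPM and the log2 fold change was 0.01, with an interval of -0.10 to 0.13.

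Ccnd2, the D-type cyclin that marks endothelial and other non-tubule classes in the nuclei below, was not called at any time. At 24 h its medians were 10.6 CPM in sham and 12.1 CPM in UNx, a log2 fold change of 0.29 ± 0.13 (adjusted p = 0.111) that fell to 0.18 without UNx replicate 4. That library read 17.3 CPM and is also the one with the high adipocyte marker sum, whose part in the value was not otherwise tested. In nuclei of UNx mouse 2, the class named Adipo (55 nuclei) read Ccnd2 at 8.26 CPM, and all nuclei of that mouse at 10.03 CPM. At 48 h the sign was the opposite, with medians of 15.0 and 12.9 CPM and a log2 fold change of -0.34 ± 0.16 (adjusted p = 0.111). By 72 h they were 16.9 and 17.0 CPM and the log2 fold change was 0.01 (interval -0.14 to 0.15).

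Ccne2, an E-type cyclin and E2F target, gave the largest called difference among the 10 at both 24 and 48 h. Shams at 24 h measured 1.28, 1.44 and 1.71 CPM (lowest, median, highest), and UNx measured 2.17, 2.45 and 4.68 CPM. UNx exceeded sham by 0.93 ± 0.19 on the log2 scale (adjusted p = 0.00287), all UNx libraries lay above all shams, and the call held under all 20 alternatives tried, with values of 0.74 to 2.08. At 48 h shams measured 0.607, 1.32 and 2.03 CPM and UNx 1.67, 2.43 and 5.23 CPM, so that 4 of 6 UNx libraries were above the highest sham. That made a log2 fold change of 1.02 ± 0.32 (adjusted p = 0.0257), lost without sham replicate 5 (0.95, adjusted p = 0.0544), UNx replicate 1 (0.98, adjusted p = 0.052) or UNx replicate 3 (0.73, adjusted p = 0.0661). With UNx replicate 6 as the only UNx library it was 0.41. At 72 h the medians were 1.23 and 2.10 CPM, and the log2 fold change of 0.75 ± 0.20 did not pass (adjusted p = 0.079), although all 6 UNx libraries were above the sham mean and it passed without UNx replicate 6 (0.83, adjusted p = 0.0387) and with DESeq2 (adjusted p = 0.0286).

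Ccne1, the other E-type cyclin, was read at only 5 to 55 counts per library, and its fold changes carry wide errors. Its values at 24 h were 0.337, 0.477 and 0.976 CPM in sham (lowest, median, highest) and 0.463, 1.05 and 1.27 CPM in UNx. This difference, 0.82 ± 0.31 on the log2 scale, was not called (adjusted p = 0.0584) and was called without sham replicate 4 (1.10, adjusted p = 0.0168), UNx replicate 1 (0.96, adjusted p = 0.0264) or UNx replicate 2 (0.92, adjusted p = 0.0482). At 48 h the medians were 0.641 and 1.13 CPM, with a highest UNx library of 2.79 CPM. A log2 fold change of 0.98 ± 0.35 was called (adjusted p = 0.0462) and was lost without any 1 of sham replicates 1, 2, 3 or 5 or UNx replicates 2 to 4 (adjusted p 0.0657 to 0.135), with 0.62 without UNx replicate 3, and without the filter on low counts (adjusted p = 0.0683). At 72 h it was 0.80 ± 0.29 (adjusted p = 0.175), with 4 of 6 UNx libraries above the highest sham and the other 2 within the sham range.

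Cdkn1a, which encodes the p53-induced inhibitor p21, was higher in UNx at 24 and 72 h. At 24 h shams measured 2.30, 3.35 and 4.08 CPM (lowest, median, highest) and UNx 4.19, 5.35 and 6.63 CPM, without overlap. In log2 terms UNx was higher by 0.70 ± 0.16 (adjusted p = 0.00469), and leaving out any 1 library kept the call. At 48 h the groups overlapped widely, from 3.18 to 11.3 CPM in sham and 5.49 to 12.3 CPM in UNx, and the log2 fold change of 0.34 ± 0.27 was not called (adjusted p = 0.35). At 72 h shams measured 4.52, 5.20 and 7.11 CPM and UNx 8.09, 9.37 and 17.0 CPM, again without overlap. Its log2 fold change was then 0.87 ± 0.18 (adjusted p = 0.0323). It remained positive without any library, at 0.67 to 0.94, but the call was lost without any 1 of sham replicates 2, 3, 4 or 6 or UNx replicate 5 (adjusted p 0.0619 to 0.079).

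Cdkn1b, which encodes the inhibitor p27 that is high in resting cells, was lower in UNx at 24 h. Its sham values were 32.5, 37.5 and 40.5 CPM (lowest, median, highest) and its UNx values were 24.3, 26.6 and 31.7 CPM. The ranges did not meet, the log2 fold change was -0.43 ± 0.08 (adjusted p = 0.0011), and leaving out any 1 library kept the call. With the profile score as a covariate in the same 12 libraries it was -0.08 (adjusted p = 0.963). At 48 h the medians were 32.3 and 30.1 CPM, a log2 fold change of -0.14 ± 0.06 that was not called (adjusted p = 0.0976). At 72 h 5 of 6 UNx libraries lay below all shams, at 29.1 to 33.1 CPM against 33.2 to 40.5 CPM, and UNx replicate 6 measured 37.9 CPM. The log2 fold change at 72 h was -0.25 ± 0.07, not called with all libraries (adjusted p = 0.111) and called without UNx replicate 6 (-0.31, adjusted p = 0.017).

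Cdkn2c, which encodes the CDK4 and CDK6 inhibitor p18, was not called at any time, with fold changes of similar size at each. Its medians were 6.21 and 7.19 CPM in sham and UNx at 24 h, 8.02 and 10.9 CPM at 48 h and 8.40 and 10.9 CPM at 72 h. The log2 fold changes were 0.27 ± 0.14 (adjusted p = 0.169), 0.35 ± 0.13 (adjusted p = 0.0523) and 0.34 ± 0.08 (adjusted p = 0.0517). At 72 h 5 of 6 UNx libraries lay above the highest sham. The 48 h value passed in 7 of 21 alternatives: without sham replicate 4 (0.45, adjusted p = 0.0131) or UNx replicate 5 (0.41, adjusted p = 0.0387), with DESeq2 (adjusted p = 0.0285) or its size factors, with the replicate block, without mitochondrially encoded genes and in the fit of all 36 libraries (adjusted p = 0.0172). The 72 h value passed in 3 of 20, without UNx replicate 1 (0.38, adjusted p = 0.0366), with DESeq2 (adjusted p = 0.00985) and with its size factors (adjusted p = 0.0486).

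Cdkn1c, which encodes p57, was not called in bulk kidney. The log2 fold changes were -0.10 ± 0.06 at 24 h (adjusted p = 0.265), 0.25 ± 0.14 at 48 h (adjusted p = 0.184) and -0.02 ± 0.14 at 72 h (adjusted p = 0.969). Its 95% interval at 24 h ran from -0.24 to 0.04 and at 72 h from -0.32 to 0.29. The 48 h value passed only without UNx replicate 6 (0.37, adjusted p = 0.0303), the library at 10.0 CPM where the other 5 UNx libraries measured 12.4 to 17.6 CPM.

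Myc was called at 48 h, higher in UNx. Shams there measured 2.33, 3.67 and 5.04 CPM (lowest, median, highest) and UNx 3.62, 6.50 and 8.48 CPM, with 4 of 6 UNx libraries above the highest sham. The log2 fold change was 0.72 ± 0.23 (adjusted p = 0.0263), lost without sham replicate 2 (0.61, adjusted p = 0.0535) or UNx replicates 1, 2 or 3 (0.60 to 0.67, adjusted p 0.0583 to 0.0605). With UNx replicate 6 as the only UNx library, at 4.11 CPM, it was 0.13. At 24 h the medians were 3.89 and 5.52 CPM and the log2 fold change of 0.53 ± 0.23 was not called (adjusted p = 0.104). The 72 h medians were 5.06 and 3.83 CPM and the log2 fold change was -0.28 ± 0.22 (adjusted p = 0.556), with 5 of 6 UNx libraries below the sham mean.

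**Figure D2:**
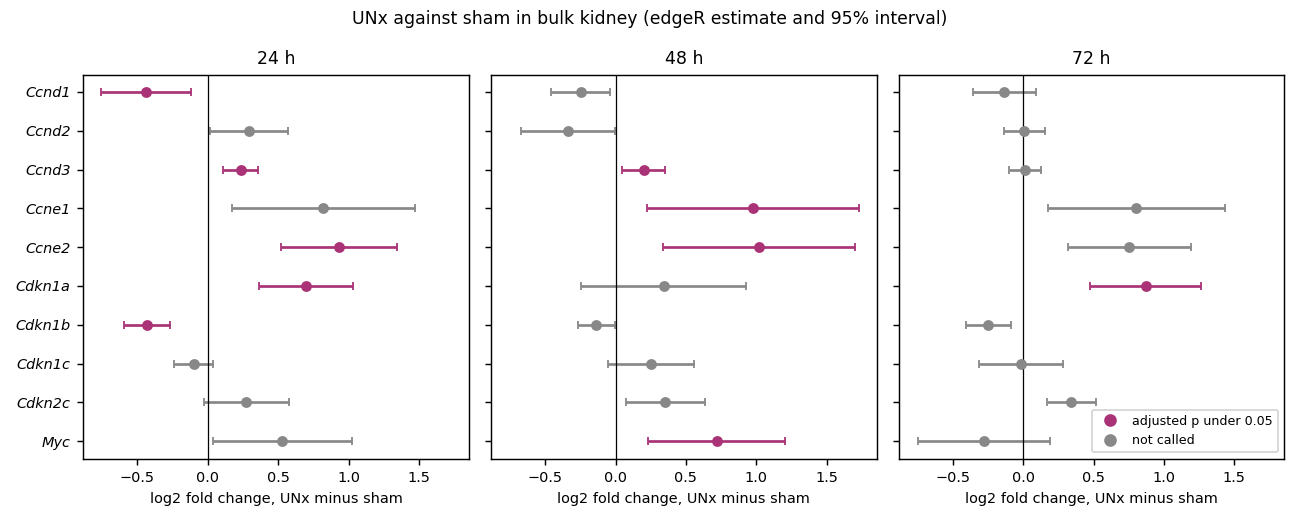
Log2 fold change of UNx against sham for each gene at 24, 48 and 72 h, with its 95% interval (edgeR, 6 libraries per group); coloured points have an adjusted p under 0.05. Ccne2 lies at 0.93, 1.02 and 0.75, and Cdkn1b at -0.43, -0.14 and -0.25.

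Whether an effect differed between times was tested in 1 fit of all 36 libraries. Between 24 and 48 h the UNx effect differed for 2 of the 10 genes, beside 37.0% of 15093 genes. The effect on Ccnd2 was lower at 48 h by a log2 difference of -0.60 ± 0.19 (adjusted p = 0.0118), and that on Cdkn1b was more positive by 0.32 ± 0.10 (adjusted p = 0.0114). Between 48 and 72 h the effect differed for Myc alone among the 10, by -1.01 ± 0.35 (adjusted p = 0.0464; 0.0708 without the filter on low counts), beside 14.6% of all genes. Between 24 and 72 h none of the 10 was called in edgeR, beside 4.15% of all genes, and 2 of them, Ccnd3 and Myc, had an unadjusted p under 0.05 (adjusted p = 0.164 and 0.185). With the profile score as a covariate none of the 3 differences was called.

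Genes around these regulators were read from 8 lists of known partners and targets, which give context by their counts. The lists were chosen with earlier results of these data known, so their counts are a description and not an independent test. Of 11 tested S phase and mitosis markers, 9 were called higher at 24 h and none lower, with the lowest p for Pcna, the replication clamp (log2 fold change 0.48, adjusted p = 0.00171). That count stood beside 14.2% of all genes called higher. At 48 h 4 of 12 were higher, beside 16.9% of all genes higher and 32.9% called in either direction, led by Ccnb2, a mitotic cyclin (1.27, adjusted p = 0.0026). At 72 h 10 of 12 were higher, beside 1.21% of all genes, led by Rrm2, a subunit of ribonucleotide reductase (1.05, adjusted p = 0.00259). The medians of this list were 0.83, 0.52 and 1.14 at the 3 times.

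Of the G1 kinases, RB proteins and E2F factors, 8 of 17 were called higher and 2 lower at 24 h, with the lowest p for Tfdp1, an E2F dimer partner (0.33, adjusted p = 0.00125), and Tfdp2, another dimer partner, lower (-0.18, adjusted p = 0.0247). At 48 h 5 of 18 were higher and 1 lower, led by E2f4 (0.62, adjusted p = 0.0025) and by Tfdp2 again (-0.50, adjusted p = 0.000346). At 72 h 2 of 18 were higher, Ccna2, the S phase cyclin (1.39, adjusted p = 0.00383), and E2f1, the activating E2F (0.86, adjusted p = 0.00974), the latter named after its value was seen. The medians were 0.24, 0.06 and 0.09.

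Among 8 tested genes of CDK inhibitor turnover, 3 were higher and none lower at 24 h, led by Dtl (1.42, adjusted p = 0.0108), the substrate receptor of a ubiquitin ligase that degrades p21. The same gene was the only one called at 72 h (1.09, adjusted p = 0.0135). At 48 h 1 was higher, Rnf123, a subunit of a ligase for p27 (0.23, adjusted p = 0.0116), and 2 were lower, led by Ddb1, a subunit of the Dtl ligase (-0.27, adjusted p = 0.00859). Of the other CDK inhibitors Cdkn2b and Cdkn2d were tested and neither was called by edgeR at any time, while Cdkn2a was too low to test.

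Genes of the wider MYC network, not only partners of MYC itself, moved in both directions. At 24 h 2 of 11 were higher, led by Mlx (0.37, adjusted p = 0.000709), and 3 were lower, led by Mlxipl (ChREBP, a glucose-responsive factor that binds Mlx), at -0.62 (adjusted p = 0.000152). At 48 h 4 of 12 were higher, again led by Mlx (0.38, adjusted p = 0.00144), and 1 was lower, Mga (-0.49, adjusted p = 0.00123). At 72 h Mxd3, a MAX partner seen in dividing cells, was higher (1.10, adjusted p = 0.0441) and Mga lower (-0.24, adjusted p = 0.0266). Of 12 MYC targets, 6 were higher and none lower at 24 h, led by Eif4a1, a translation helicase (0.44, adjusted p = 7.17e-05). At 48 h 3 were higher, led by Srm, spermidine synthase (0.43, adjusted p = 0.00211), and 2 lower, led by Ncl, nucleolin (-0.19, adjusted p = 0.0216). At 72 h edgeR called none of the 12.

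Among p53 targets, 3 of 15 were higher and 1 lower at 24 h, led by Gdf15, a stress cytokine (1.16, adjusted p = 0.000462), and Sesn2 (-0.41, adjusted p = 0.00375). At 48 h 4 of 16 were higher, again led by Gdf15 (1.04, adjusted p = 0.00206), and 1 lower, Btg2, an antiproliferative gene (-0.49, adjusted p = 0.00381). At 72 h, the time of the higher Cdkn1a value, 1 of 16 was called, Zmat3 (0.24, adjusted p = 0.0357). Of 11 tested genes of mitogen signalling feedback, 2 were higher at 24 h, led by Etv4 (0.74, adjusted p = 0.0372), 1 was lower at 48 h, Spred1 (-0.55, adjusted p = 0.00135), and edgeR called none at 72 h. The counts of these lists stand beside 27.3%, 32.9% and 1.71% of all genes called in either direction at 24, 48 and 72 h.

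**Figure D3:**
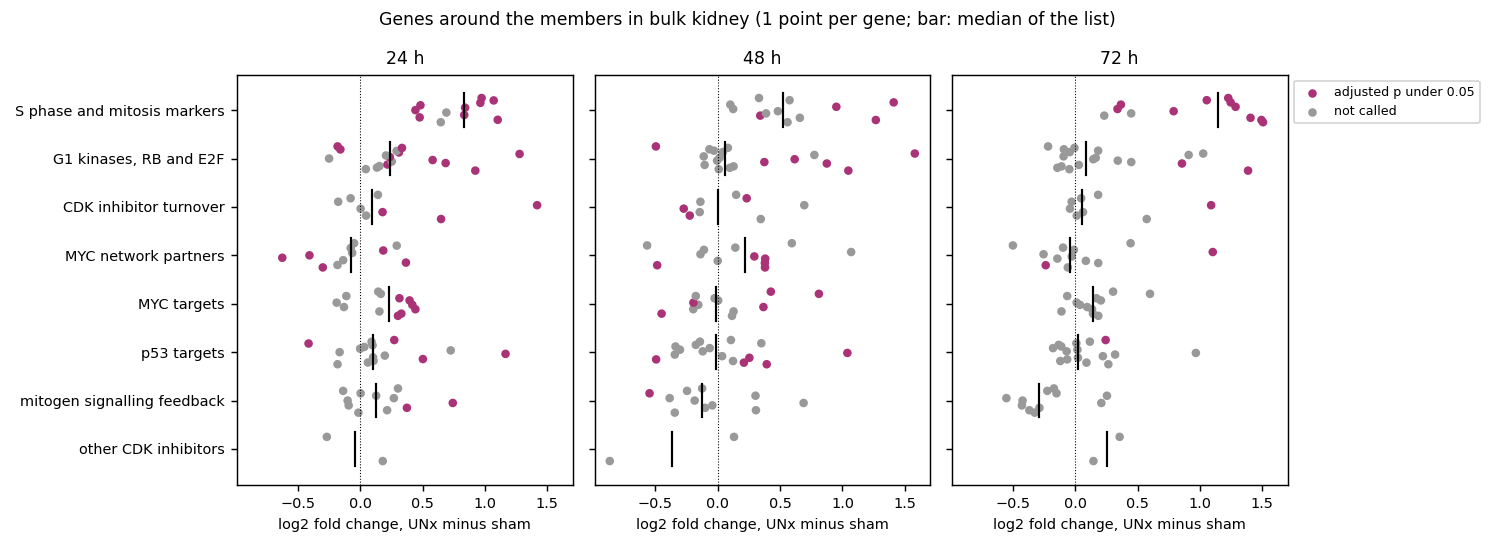
Log2 fold change of UNx against sham for the genes of the 8 lists at each time, 1 point per gene, coloured where the adjusted p was under 0.05, with a bar at the list's median. The median of the S phase and mitosis markers lies at 0.83, 0.52 and 1.14, and those of the other lists between -0.37 and 0.25.

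The nuclei placed the 10 genes in cell classes. The deposited annotation gave 16500 nuclei in 30 classes, of which 23 held at least 10 nuclei in every mouse and were used. Orders of classes below are among these 23. Levels are CPM of the UMIs summed per mouse and class. Marker genes led in the class of the same name for the proximal tubule classes PTS1 to PTS3, the thick limb (CTAL2 before MTAL), the distal convoluted (DCT), connecting (CNT), principal (CPC) and intercalated (ICA, ICB) classes, the endothelial classes (EC1 before EC2) and fibroblasts (Fib). The thin limb markers were highest in MPC and not in the DTL or ATL classes, and the mural markers were higher in Fib (370.8 summed CPM) than in Per (167.1). The 4 libraries shared 18 cell barcodes, and per the labels replicate 1 of each group was batch 3 and replicate 2 batch 4.

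Ccnd1 was highest in DTL2 at a mean of 109.7 CPM (67.8 to 161.0 over the 4 mice), a class of 127 nuclei with 11 in sham 2. Next came CPC at 83.0, PEC at 73.6, MTAL at 72.4 and CTAL2 at 69.9 CPM, and PTS3 was lowest at 20.7 CPM. Each of these neighbours overlapped over the mice. Among classes with at least 30 nuclei in every mouse, Ccnd1 was highest in CPC. Within the proximal tubule, Ccnd1 was higher in PTS1 than in PTS2 and PTS3 in all 4 mice: sham 1 measured 38.6, 7.76 and 6.37 CPM in PTS1, PTS2 and PTS3, and sham 2 measured 75.2, 37.9 and 33.0 CPM. UNx 1 measured 32.7, 6.88 and 6.29 CPM, and UNx 2 measured 60.4, 34.9 and 37.2 CPM. Among the classes used, Ccnd3 was highest in MD at 189.0 CPM (146.5 to 257.7), a class of 50 nuclei. Fib at 164.4 and CTAL2 at 156.6 CPM came next, and PTS3 was lowest at 25.2 CPM. The class named T cell, left out for few nuclei, read 1143 CPM in sham 1 (24 nuclei) and 1191 CPM in UNx 1 (11 nuclei). The B cell class, also left out, read 947.9 CPM in sham 1 (13 nuclei) and 806.6 CPM in UNx 1 (8 nuclei). In sham 2 (2 nuclei) and UNx 2 (4 nuclei) it read 194.4 and 98.65 CPM. Ccnd3 too was higher in PTS1 than in PTS3 in all 4 mice, from 77.4 against 14.5 CPM in sham 1 to 55.3 against 36.9 CPM in UNx 2.

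Ccnd2 differed from the other D-type cyclins in its classes. Among the classes used, it was highest in EC1 at 80.1 CPM (49.5 to 115.5). The class the authors named Uro at 56.8 CPM and EC2 at 48.1 CPM (35.7 to 54.5) came next. The range of EC2 did not overlap that of the next class, Fib, at 24.9 CPM (16.3 to 30.6). This was the only gap among 220 neighbouring pairs over the 10 genes. In DTL2 and MD no Ccnd2 UMI was read in any mouse. The T cell class, left out for few nuclei, read Ccnd2 at 204.1 CPM in sham 1 (24 nuclei) and 113.4 CPM in UNx 1 (11 nuclei). The single T cell nucleus of sham 2 read 484.1 CPM. The class named Macro, also left out, read 63.3 CPM in sham 1 (14 nuclei) and 123.2 CPM in UNx 1 (9 nuclei). Cdkn1b had the narrowest spread over classes among the genes read at 20 CPM or more, from 25.6 CPM in DTL1 to 52.4 CPM in Uro.

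**Figure D4:**
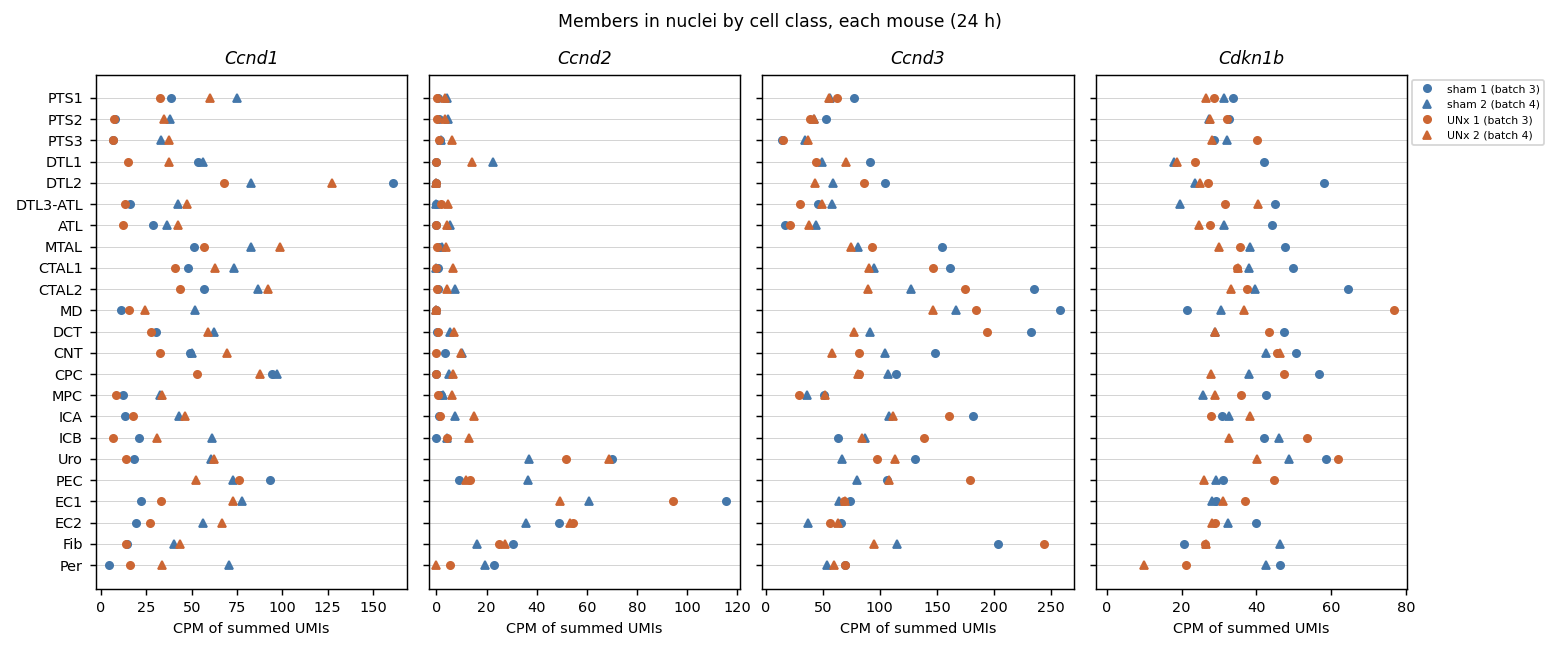
CPM of summed UMIs of Ccnd1, Ccnd2, Ccnd3 and Cdkn1b in each of the 23 classes at 24 h, 1 point per mouse, coloured by group with the marker giving the batch. Ccnd2 lies at 35.7 CPM or more in every mouse in EC1, EC2 and Uro, while batch 4 mice (triangles) lie above batch 3 mice for Ccnd1 in most classes.

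The other 6 genes were sparse in nuclei. Their highest classes were PEC for Ccne1 (2.22 CPM, from 2 UMIs), Ccne2 (15.9 CPM, 13 UMIs) and Myc (4.06 CPM, 3 UMIs), and Uro for Cdkn1a (8.32 CPM, 22 UMIs) and Cdkn2c (3.23 CPM, 8 UMIs), and these orders rest on few UMIs. Cdkn1c was highest in MD among the classes used (13.4 CPM, from 5 UMIs of 1 nucleus of sham 1). The class the authors named Podo was left out, because 1 mouse held 2 of its nuclei, but Cdkn1c, whose protein p57 is a known podocyte marker, was read there in far larger shares. Of Podo nuclei, 13 of 21 in sham 1 (61.9%, exact 95% interval 38.4% to 81.9%), 38 of 57 in sham 2 (66.7%, 52.9% to 78.6%), 1 of 2 in UNx 1 and 34 of 59 in UNx 2 (57.6%, 44.1% to 70.4%) had a UMI. In PTS1, which should lack it, the share was 0.626%, 6.13%, 0.649% and 2.79% in the same order, and the median depth per nucleus was 5972, 11452, 20296 and 9424 UMIs in Podo and 10423, 10785, 12414.5 and 8358.5 UMIs in PTS1. These intervals cover counting error only.

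Genes with the most similar pattern over the 23 classes were sought among 11645 genes by Pearson's r of log2(mean CPM + 1), given as a description. They were Zfp865 and Uqcrh for Ccnd1 (r = 0.730 and 0.728), Nlrc5 and Marcks for Ccnd2 (0.941 and 0.905), Ezh2 and Slc1a5 for Ccnd3 (0.863 and 0.838), and Tmprss2 and Mzt1 for Cdkn1b (0.832 and 0.809). The classes share the same 4 libraries and differ in depth and number of nuclei.

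Between UNx and sham nuclei at 24 h, none of the 10 genes was called. Over all nuclei edgeR called 0 of 19975 genes (360 at an unadjusted p under 0.05), and 0 of the 9 testable members had an unadjusted p under 0.05, Ccne1 being too low to test. DESeq2 called 25 genes and no member. In the classes, 88 tests of a member in a class gave 0 calls and 0 at an unadjusted p under 0.05 with edgeR, and 0 calls with DESeq2. With the batch as a replicate block, described below, there were still 0 calls. Of the 88 tests, 4 then had an unadjusted p under 0.05. The tests share the same mice and are not independent, so this count cannot say whether these 4 arose by chance. In these Ccnd3 had log2 fold changes of -0.81 in CNT (edgeR adjusted p = 0.0724), -0.42 in CTAL2 (adjusted p = 0.482) and -0.41 in MTAL (adjusted p = 0.587), and Cdkn1c had -1.39 in PTS2 (adjusted p = 0.256). With 2 mice per group an exact permutation test cannot go below p = 0.333.

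The all-nuclei values show the batch. Ccnd1 measured 28.8 and 57.7 CPM in sham 1 and 2, and 23.5 and 54.9 CPM in UNx 1 and 2, so replicate 2 was above replicate 1 in both groups while UNx was 0.818 and 0.951 of sham within the batches. Its log2 fold change was -0.05 (95% interval -1.80 to 1.70). Ccne2 measured 9.18 and 2.72 CPM in sham and 6.94 and 1.88 CPM in UNx, a UNx to sham ratio of 0.756 in batch 3 and 0.690 in batch 4. The log2 fold change was -0.38 (interval -2.66 to 1.91), beside 0.93 (0.52 to 1.35) in bulk kidney at the same time. The 2 assays used other mice and read nuclear against whole-tissue RNA, and the difference between them was not tested. For Ccnd3 the all-nuclei value was -0.22 (interval -0.78 to 0.34) against 0.24 in bulk, for Cdkn1b -0.08 (-0.52 to 0.35) against -0.43, and for Cdkn1a 0.05 (-1.23 to 1.33) against 0.70.

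The mice of 1 batch varied together (r = 0.805 over 19957 genes between the replicate difference in sham and in UNx), so the batch was also fitted as a replicate block. With the block 207 of 19975 genes (1.04%) were called in all nuclei and still no member. The interval narrowed to -0.36 to 0.15 for Ccnd1, -0.83 to 0.06 for Ccne2, -0.46 to 0.05 for Ccnd3 and -0.30 to 0.14 for Cdkn1b. Cdkn1c measured 0.519 and 0.667 of sham in the UNx mice of the 2 batches, with a blocked log2 fold change of -0.67 (interval -1.16 to -0.18, adjusted p = 0.199). The same mice held 21 and 57 Podo nuclei in sham and 2 and 59 in UNx, and the part of these in the Cdkn1c value was not tested.

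By class, the lowest p of each gene was as follows, and none was called. For Ccnd3 it was in CNT, where shams measured 148.8 and 104.8 CPM and UNx 81.7 and 57.9 CPM. The log2 fold change was -0.81 ± 0.34 (edgeR adjusted p = 1). With the block it was -0.81 ± 0.20 (edgeR adjusted p = 0.0724), beside 0.458% of all genes called in CNT with the block. For Ccnd1 the lowest p was in DTL1, with 53.5 and 56.0 CPM in sham and 14.8 and 37.4 CPM in UNx (-1.07 ± 0.73). For Cdkn1b it was in CTAL2, with 64.5 and 39.6 CPM in sham and 37.5 and 33.3 CPM in UNx (-0.52 ± 0.34). The lowest p lay in PTS3 for Ccnd2 (1.17 ± 1.08), in CPC for Ccne2 (0.79 ± 0.92) and in PTS2 for Cdkn1c (-1.33 ± 1.28). For Cdkn2c, testable only in PTS1, PTS2 and PTS3, it lay in PTS2 (-1.06 ± 0.71). Myc was testable in PTS3 alone (-1.13 ± 0.81). Cdkn1a and Ccne1 were too low to test in any class.

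**Figure D5:**
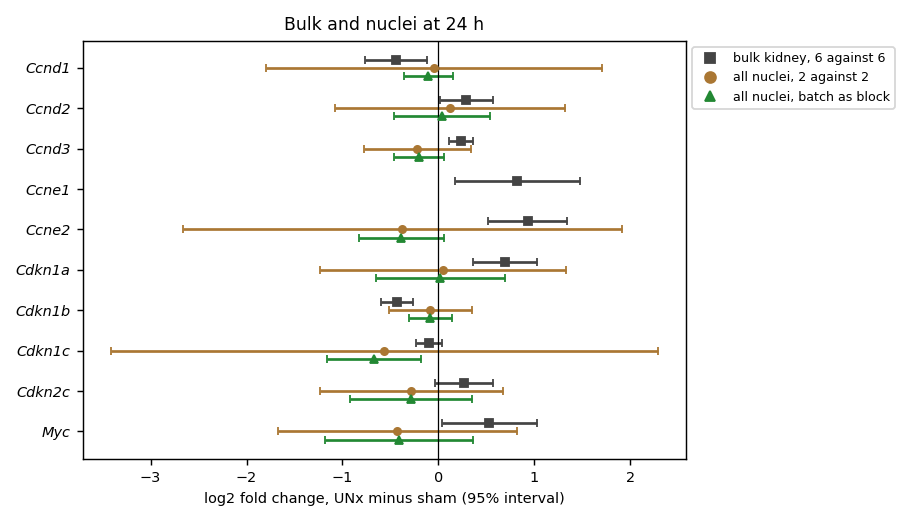
Log2 fold change of UNx against sham at 24 h with its 95% interval in bulk kidney (6 against 6), in all nuclei (2 against 2) and in all nuclei with the batch as a block; Ccne1 was not testable in nuclei. Without the block the intervals of all nuclei include 0 for all 9 genes shown, with the block that of Cdkn1c does not (-1.16 to -0.18), and Ccne2 lies at 0.93 in bulk and at -0.38 in nuclei.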

How the data were processed

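Gene expression was measured in 36 bulk and 4 single-nucleus samples of mouse right kidney. For bulk libraries the authors deposited estimated counts by gene without normalization. Salmon 1.5.0, FastQC 0.11.8, R 4.10 and the build GRCm39 stand in the submitters' processing notes. For nuclei they deposited estimated UMI counts per nucleus, likewise raw, and the notes name alevin, Seurat and mm10. Salmon and alevin share reads between similar sequences, so 34.1% of bulk values and 13.9% of nucleus values above 0 are not whole, and they were rounded before testing, for nuclei after summing per mouse and class. Nuclei had been filtered before deposit (lowest total 1755 UMIs); how the filter was set, and whether doublets were removed, is not given in the sources used here. Doublets were not called again. Classes are those of the deposited annotation in its form with 30 classes. Its finer form has separate clusters named for UNx in the proximal tubule.

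Groups, times, replicates and batches came from the labels. Bulk gene IDs were paired with symbols through a reference list of gene names, which named 28340 of 28467 genes. Gene types, used to pick the processed pseudogenes, came from GENCODE M21. Genes were tested with edgeR 4.0.16 in R 4.3.3 (quasi-likelihood, filterByExpr, TMM, two-sided) on all genes and called where the p adjusted by Benjamini-Hochberg over all genes tested was under 0.05. Differences between times used 1 fit of 36 libraries. Each standard error was taken as the absolute log2 fold change over the root of its F statistic. The profile score used the log2 CPM (prior count 2) of 147 processed pseudogenes, as deviations from their means in the later shams. For each library these deviations were projected on the difference between 24 h shams and later shams. Alternatives were DESeq2 1.42.0, its size factors, no filter, a replicate block, leaving out each library, leaving out mitochondrially encoded genes, and the profile score. The fit of all 36 libraries with the score was chosen after seeing the data. In nuclei the same number marks a shared batch per the labels, and r of the replicate differences was 0.805. In simulated data with the 24 h means and library sizes (14104 genes), 100% of genes changed by a log2 of 1 were called. Of those changed by 0.5, 58% were called, and for PTS1 nuclei (14933 genes) the shares were 72% and 6%. The simulation fixed the dispersion at 0.02, held no batch and changed only genes above a minimum mean count. These shares therefore do not apply to genes at low counts, such as Ccne1, or to nuclei with their batch. Library pairs were compared by chi-square (lowest 5.33 per gene), so no library was counted as a copy. The mouse was the replicate.

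The 10 genes and the gene lists were chosen with earlier results of these data known. The text names all 10 at each time, from each list the most significant called gene in either direction, and in nuclei the class of the highest mean and of the lowest p. Of the lists, Skp1 could not be matched by symbol.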

Additional observations from a re-analysis of the deposited data

Results flagged for a closer look

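Of 60 groups of 6 libraries checked for a library far from the others, 4 had one, where chance gives about 1 in 20. Ccnd2 in UNx at 24 h read 17.3 CPM in replicate 4, and the next library 12.4 CPM. That library also held the highest adipocyte marker sum, 879.5 CPM. Ccne1 in shams at 24 h read 0.976 CPM in replicate 4, and the next library 0.531 CPM. Ccne2 in UNx at 24 h read 4.68 CPM in replicate 6, and the next 2.97 CPM, and replicate 6 also had the highest profile score of its group, 0.864. Cdkn1a in UNx at 72 h read 17.0 CPM in replicate 1, and the next 9.99 CPM; without it the log2 fold change was 0.67 and remained called.

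The effect of UNx differed between times for 3 genes. For Ccnd2 the effect at 48 h minus that at 24 h was -0.60 (adjusted p = 0.0118), for Cdkn1b it was 0.32 (adjusted p = 0.0114), and for Myc the effect at 72 h minus that at 48 h was -1.01 (adjusted p = 0.0464). With the profile score as a covariate these were -0.09, 0.11 and -0.41, and none was called.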

How the results depend on the processing

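Under the alternatives, 64 counts stayed within 1.5 times of the reported count and 27 did not. A count of 0 that remained 0 was taken as unmoved. This was so for members called in nuclei with the block, with DESeq2 or with 1 mouse left out. Of the fold changes and time differences of single genes, 626 kept direction and call, 63 lost the call, 21 gained it and 32 changed sign. The cause was not tested, beyond that settings with fewer libraries have fewer replicates.

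With the profile score as a covariate, members called were 1, 0 and 0 at 24, 48 and 72 h (all genes 85, 0 and 104 against 3852, 4696 and 249), and 0 differed between 24 and 48 h or between 48 and 72 h (all genes 1 and 0 against 5587 and 2210; 27 against 626 between 24 and 72 h). Signs then changed for Ccnd1 (0.19) and Ccnd2 (-0.051) at 24 h, Cdkn1a (-0.35) and Cdkn1c (-0.17) at 48 h, Cdkn1c (0.19) at 72 h, Myc between 24 and 48 h (-0.90) and Cdkn1a between 24 and 72 h (-0.34). In 1 fit of all 36 libraries with the score, added after seeing the data, 0 members and 82 genes were called at 48 h and 1350 genes at 24 h, with Cdkn1a at 48 h at -0.30. With 1 UNx library at 48 h, 0 members and 0 genes were called, and Ccnd2 (0.018), Cdkn1a (-0.21) and Cdkn1c (-0.29) changed sign. Without the filter on low counts 2 members were called at 48 h, and 0 differed between 48 and 72 h. At 72 h 2 members were called with DESeq2 size factors in edgeR and 3 with DESeq2 (all genes 664).

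Leaving out 1 library gave 4 to 6 members called at 24 h, 1 to 5 at 48 h and 0 to 3 at 72 h (all genes 102 to 677 at 72 h). Over these, the 72 h fold changes of Ccnd2 (-0.028 to 0.040), Ccnd3 (-0.007 to 0.047) and Cdkn1c (-0.093 to 0.069) took both signs. Leaving out 1 mouse of the nuclei, Ccnd1 ran from -0.93 to 0.65, Ccnd2 from -0.49 to 0.55, Ccnd3 from -0.40 to 0.008, Ccne2 from -1.45 to 0.65, Cdkn1a from -0.38 to 0.39 and Cdkn1c from -2.16 to 0.71, with no member called. With at least 30 nuclei in every mouse, the highest class was the same for 4 of the 10 genes, and with 1 mouse left out for 5 to 10.

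In bulk the replicate numbers did not pair the mice (r of same-numbered deviations -0.285 to 0.135), and only 2 of 18 libraries correlated best with their own number. With the replicate block 5, 3 and 1 members were called at 24, 48 and 72 h (all genes 3186, 4404 and 120), with Ccnd3, Ccne1 and Myc no longer called and Ccnd1 and Cdkn2c newly called at 48 h. In nuclei the block raised the calls over all genes from 0 to 207, with 25 by DESeq2, and changed no call of a member. The gene lists were not refitted under the alternatives. Ccne1, at 5 to 55 counts per library, is limited by depth.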
